A study of Homo sapiens with 18 samples.

Results

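GALR2 and P2RY2 are cell-surface receptors of the G protein-coupled class, and they are described here in human cells stimulated with bacterial flagellin. They were chosen by their measured differences from mock-treated cells at 60 min, as the genes of this class with the sharpest ones, and are 2 of 16111 genes tested. Each had 1 row on the array that carried its symbol alone. GALR2 was read by transcript cluster 16838017 and P2RY2 by transcript cluster 16728778. The values at 60 min are therefore given below as a description, with no test. The arrays at 120 min were not used in the choice and carry the tests.

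Gene expression was measured on 18 microarrays (Affymetrix Human Gene 2.1 ST) with RNA from HEK293, a line derived from human embryonic kidney. All groups, controls included, overexpressed murine TLR5, the Toll-like receptor that recognises flagellin, and all grew in SILAC media, which carry lysine and arginine of heavy, medium or light mass. Cells at passage 7 received flagellin isolated from Salmonella Typhimurium SL1344 (ST), flagellin isolated from E. coli Nissle (EcN), or a mock control, and RNA was taken at 120 or 60 min. Flagellin was dosed to correspond to a multiplicity of infection of 10, and each of the 6 groups held 3 arrays, lettered A, B and C. The 18 arrays had nearly the same median, between 2.27 and 2.32 on the log2 scale. The sources used here do not say which amino acid label went with which array. The arrays are called biological replicates, without saying that they came from separate cultures, so the p-values measure the spread between these arrays. The description fields of the ST arrays name the mock control, whereas ST stands in their titles and in the source and treatment fields, and the titles were followed.

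GALR2 is a receptor for the neuropeptide galanin. It couples mainly to Gq proteins, which activate phospholipase C and release calcium from intracellular stores, and it can also act through Gi proteins. P2RY2 is a receptor for extracellular ATP and UTP that couples to Gq and phospholipase C. In epithelia it is known for calcium signals and chloride secretion, and released ATP is a common danger signal beside bacterial products.

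For GALR2 the sequence before the gene's start was at hand, from RefSeq on the GRCh38.p14 assembly. It is shown because GALR2 had the lowest difference of all genes between EcN and mock at 60 min. The 250 bases before the start lie at chr17:76074531-76074780 on the plus strand. Capitals mark the one match to the GC box, the motif bound by Sp1-type factors, which lies on the minus strand.
GALR2 promoter: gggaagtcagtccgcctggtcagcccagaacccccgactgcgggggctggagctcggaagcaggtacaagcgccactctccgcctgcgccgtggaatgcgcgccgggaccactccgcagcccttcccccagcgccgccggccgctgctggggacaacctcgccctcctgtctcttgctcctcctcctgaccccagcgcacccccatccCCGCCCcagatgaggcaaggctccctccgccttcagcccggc
Motifs were searched on both strands in the window from 250 bases before to 50 bases after the start, and likewise in 35116 RefSeq promoters. The GC box (GGGCGG) was found once, with its first base at position -42 from the start, and 45.0% of all promoters held one. A kappa B motif (GGGA, any 2 bases, TTCC), the kind of site that NF-kB binds, was found once on the plus strand at position 36 after the start, outside the bases printed, and 1.61% of promoters held one. The window had no match to the TATA box (TATAAA, 11.5% of promoters), the core of the CRE (TGACG, 24.6%), CCAAT (34.6%), the interferon-type ISRE (GAAA, any 2 bases, GAAA; 3.57%), the EGR motif (GCG, any base, GGGCG; 9.43%) or the E box (CACGTG, 7.26%). The matches did not overlap each other. GC content was 71.7%, against a median of 58.7% over all promoters, and 83.4% of promoters had less. The window held 26 CpG pairs, and 69.9% of promoters had fewer. A match is a run of letters and was not tested as a binding site.

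The identity of the cells and the state of the arrays bear on what follows. All 8 markers listed for HEK293 passed the filter on low values, among them NEFL (mean 10.38 over 18 arrays) and CDH2 (8.63), while NEFM averaged 2.04, under the array medians. Of 5 leukocyte markers on the array, PTPRC, CD3E and ITGAM were dim. The log2 of the 5 summed levels ranged from 9.16 to 9.49 in the groups other than mock at 60 min, against 8.94 to 9.26 in mock at 60 min, most of it from CD68 (mean 9.28). Of 4 endothelial and fibroblast markers, CDH5, COL1A2 and DCN were dim, and the log2 sum ranged from 4.94 to 5.42 over all groups. In EcN cells at 60 min, NEFL rose by 0.40 ± 0.11 (SE; adjusted p = 0.0424 in limma), while INA (-0.55 ± 0.13, adjusted p = 0.0324) and VIM (-0.53 ± 0.14, adjusted p = 0.0448) fell, 3 of 8 or 37.5% called against 9.81% of all genes. The call held in 5 of 19 alternatives for NEFL, in 9 for INA and in 8 for VIM. All 3 calls were lost without the arrays high in NF-kB targets, described next, with fewer arrays fitted. The differences there were of similar size, at 0.44 for NEFL, -0.59 for INA and -0.57 for VIM. The part of these markers in the receptor values was not tested. Whether the human TLR5 row reads the murine transgene was not examined, and the row checks nothing here.

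NF-kB targets, the genes that flagellin is known to induce through TLR5, did not follow the labels on all arrays. They were high on 5 arrays: array C of ST and of EcN at both times, and array A of mock at 120 min. For the 4 flagellin arrays among these, high levels go with the label. NFKBIA, which encodes the NF-kB inhibitor, lay between 10.15 and 10.85 on these 5 arrays and between 8.09 and 8.82 on the other 13. CXCL8 lay between 5.62 and 8.76 on the 5 and between 2.16 and 2.90 on the 13, and TNFAIP3 between 8.20 and 9.60 on the 5 and between 5.95 and 6.55 on the 13. Thus 4 of 6 arrays labelled ST and 4 of 6 labelled EcN lacked the high levels, while 1 mock array had them. The receptors' differences between groups and times are given with and without these 5 arrays. Leaving them out keeps only flagellin arrays that lacked the high levels. The pooled permutation test, the correlations and the order of the groups were run with all arrays.

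GALR2 was lower at 60 min in both flagellin groups than in mock cells. With EcN its log2 level was 4.86, 4.71 and 5.24 on arrays A, B and C, and with ST it was 5.34, 5.74 and 5.80. In mock cells at 60 min it was 6.63, 6.45 and 6.57. All 6 flagellin arrays lay below all 3 mock arrays, and the 3 EcN arrays lay below the 3 ST arrays. The EcN mean was 4.94 ± 0.28 (SD, n = 3) and the mock mean 6.55 ± 0.09 (SD, n = 3), a difference of -1.62 on the log2 scale, or 3.07-fold lower with EcN. This was the lowest difference between these groups among the 16111 genes (rank 1). The ST mean was 5.63 ± 0.25 (SD, n = 3), a difference from mock of -0.92, or 1.90-fold lower with ST, and rank 53 from the lowest. ST exceeded EcN by 0.69, or 1.62-fold. Without the arrays high in NF-kB targets the differences were -1.77 for EcN, -1.01 for ST and 0.76 between ST and EcN.

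P2RY2 had the same order of groups at 60 min with smaller differences on the log2 scale. Its log2 level was 4.34, 4.32 and 4.43 with EcN and 4.57, 4.63 and 4.68 with ST. In mock cells it was 5.06, 5.19 and 5.17. Again no flagellin array reached a mock array, and no EcN array reached an ST array. The means were 4.36 ± 0.06 with EcN, 4.63 ± 0.06 with ST and 5.14 ± 0.07 in mock cells (SD, n = 3 each). The EcN mean differed from mock by -0.78 (1.72-fold lower, rank 98 from the lowest) and the ST mean by -0.51 (1.42-fold lower, rank 486). ST exceeded EcN by 0.27, or 1.20-fold. Without the arrays high in NF-kB targets the differences were -0.81 for EcN, -0.54 for ST and 0.27 between ST and EcN.

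Since these contrasts chose the genes, the counts over all genes stand beside them as background and nothing is read from them. All 3 EcN arrays lay below all 3 mock arrays in 15.2% of genes at 60 min, all 3 ST arrays below all 3 mock arrays in 15.9%, and all 3 ST arrays above all 3 EcN arrays in 8.14%. Both flagellin comparisons used the same 3 mock arrays. In a culture measured as a whole, fewer cells of a type and less RNA per cell cannot be told apart.

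**Figure D1:**
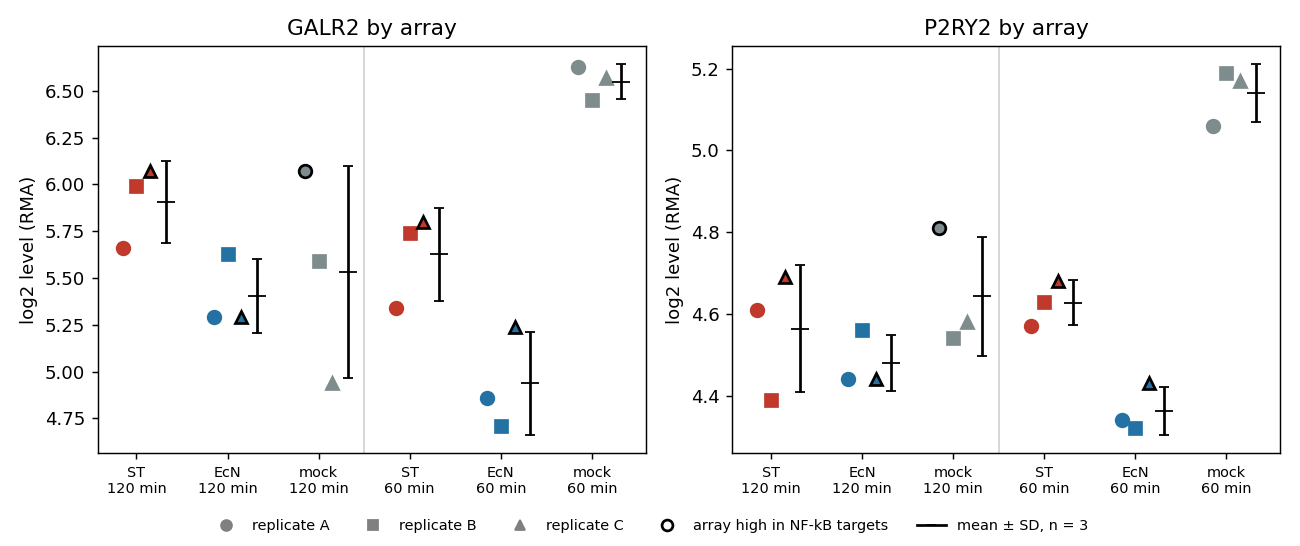
Log2 levels of GALR2 and P2RY2 on each of the 18 arrays by treatment and time; colours give the treatment, shapes the replicate letter, bars the group mean ± SD (n = 3), and black outlines the 5 arrays high in NF-kB targets. The 3 mock arrays at 60 min sit above the other 15, at 6.45 or more for GALR2 and 5.06 or more for P2RY2.

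Receptor levels were set against NF-kB targets array by array. At 60 min the 2 flagellin arrays high in NF-kB targets had GALR2 levels of 5.24 and 5.80, within or just above the range of 4.71 to 5.74 on the other 4 flagellin arrays. P2RY2 levels were 4.43 and 4.68 on the 2 high arrays and 4.32 to 4.63 on the other 4. Within the EcN group and within the ST group, the high array had the highest level of both receptors at 60 min. Flagellin arrays without the high NF-kB targets thus had receptor levels below all mock arrays of that time, as did those with them. At 120 min GALR2 lay between 5.29 and 6.07 on the 2 high flagellin arrays and between 5.29 and 5.99 on the other 4. P2RY2 lay between 4.44 and 4.69 on the 2 high arrays and between 4.39 and 4.61 on the other 4. The ranges overlapped for both genes at 120 min. Within groups, the high array was then the highest for both receptors with ST and in mock cells, but not with EcN. Whether receptor levels went with NF-kB targets was not tested.

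At 120 min neither receptor passed the test in any comparison. GALR2 stood at 5.66, 5.99 and 6.07 with ST, at 5.29, 5.63 and 5.29 with EcN, and at 6.07, 5.59 and 4.94 in mock cells. The mock arrays held the lowest GALR2 level at this time and came close to the highest, which was on ST array C, and mock array A, the one high in NF-kB targets, was the highest of the mock arrays. P2RY2 stood at 4.61, 4.39 and 4.69 with ST, at 4.44, 4.56 and 4.44 with EcN, and at 4.81, 4.54 and 4.58 in mock cells. Its 3 groups overlapped.

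For GALR2 the group means at 120 min were 5.91 ± 0.22 with ST, 5.40 ± 0.19 with EcN and 5.53 ± 0.56 in mock cells (SD, n = 3 each). EcN differed from mock by -0.13 ± 0.25 (SE; 95% interval -0.68 to 0.42; adjusted p = 0.853 in limma over all genes). The interval runs from 1.60-fold lower to 1.34-fold higher with EcN. ST differed from mock by 0.38 ± 0.25 (95% interval -0.17 to 0.93; adjusted p = 0.527 in limma), so that up to 1.90-fold higher with ST lies within it. This difference was 0.64 without mock array A and 0.08 without mock array C, and passed in neither case. ST exceeded EcN by 0.51 ± 0.25 (95% interval -0.04 to 1.06; adjusted p = 0.574 in limma). All 3 ST arrays lay above all 3 EcN arrays, as they did in 10.5% of all genes at 120 min. This was the only one of the 3 comparisons at 120 min in which the GALR2 groups did not overlap. Without the arrays high in NF-kB targets the EcN difference from mock was 0.20, with its sign turned, the ST difference from mock 0.56 and the difference between ST and EcN 0.37, none of which passed.

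For P2RY2 the means were 4.56 ± 0.16 with ST, 4.48 ± 0.07 with EcN and 4.64 ± 0.15 in mock cells (SD, n = 3 each). EcN differed from mock by -0.16 ± 0.12 (SE; 95% interval -0.43 to 0.11; adjusted p = 0.592 in limma), the lower bound being 1.35-fold. ST differed from mock by -0.08 ± 0.12 (95% interval -0.35 to 0.19; adjusted p = 0.802 in limma). ST and EcN differed by 0.08 ± 0.12 (95% interval -0.19 to 0.35; adjusted p = 0.863 in limma). Without the arrays high in NF-kB targets the 3 differences were -0.06, -0.06 and -0.0018, and none passed. A p that misses the threshold does not show that the treatments act alike.

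The background at 120 min was empty: limma called 0 genes, or 0.0%, in each of the 3 comparisons. At an unadjusted p under 0.05 it had 1033 genes higher and 1090 lower with EcN, 1118 higher and 1058 lower with ST, and 646 higher and 769 lower in ST against EcN. With both flagellins pooled, GALR2 averaged 5.65 on 6 arrays and 5.53 on 3 mock arrays, a difference of 0.12 (two-sided exact permutation test, p = 0.643). P2RY2 averaged 4.52 on the 6 flagellin arrays and 4.64 on the 3 mock arrays, a difference of -0.12 (two-sided exact permutation test, p = 0.262). The exact test has 84 splits and cannot go below p = 0.0119.

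**Figure D2:**
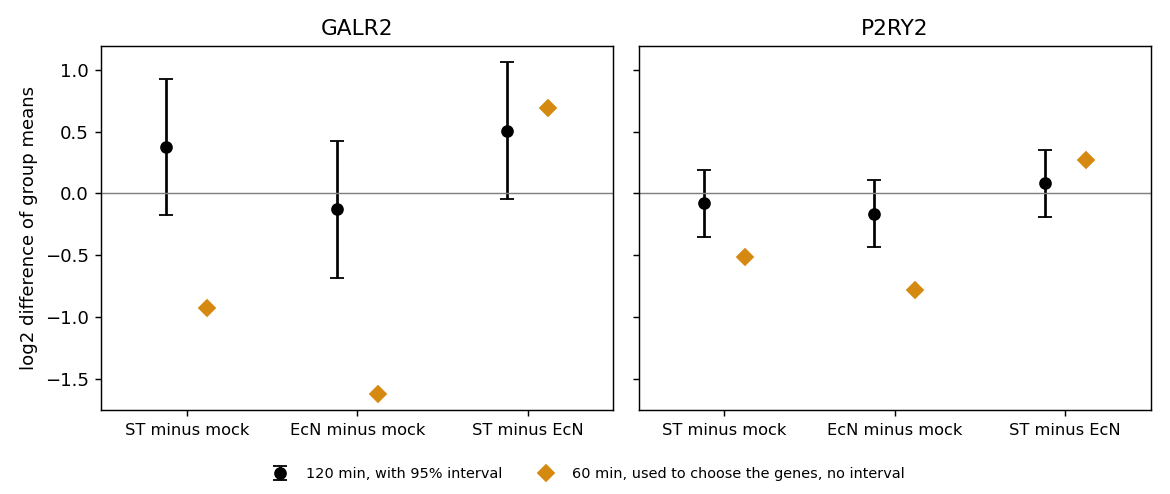
Differences of group means on the log2 scale for GALR2 and P2RY2: black points with 95% intervals from limma at 120 min, orange diamonds without interval at 60 min, when the genes were chosen. Every interval at 120 min includes 0, and the difference farthest from 0 is the -1.62 of GALR2 with EcN at 60 min.

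Set side by side, the levels at 120 and 60 min differed most in the mock cells for both receptors. GALR2 in mock cells averaged 5.53 at 120 min and 6.55 at 60 min, a difference of -1.02 (2.03-fold lower at 120 min, rank 6 from the lowest of all genes), and -1.29 without array A of mock at 120 min. With EcN it was higher at 120 min by 0.46, with no overlap (0.67 without the arrays high in NF-kB targets). With ST it was higher by 0.28, with overlap (0.285 without those arrays). P2RY2 in mock cells averaged 4.64 at 120 min and 5.14 at 60 min, a difference of -0.50 (1.41-fold lower at 120 min, rank 172), and -0.58 without that array. With EcN it was higher at 120 min by 0.12, with no overlap (0.17 without the arrays high in NF-kB targets), and with ST the difference was -0.07, with overlap (-0.10). As background, all 3 mock arrays at 120 min lay below all 3 at 60 min in 7.04% of genes, and all 3 EcN arrays at 120 min lay above all 3 at 60 min in 7.75%. These differences share the 60 min arrays with the choice of the genes and were not tested. A difference between the receptors' response to flagellin at 120 min and at 60 min was not tested for the same reason.

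The 3 mock arrays at 60 min were the highest of all 18 for both receptors. The lowest of them had a GALR2 level of 6.45, against at most 6.07 on the other 15 arrays, and a P2RY2 level of 5.06, against at most 4.81. Over all genes, 1.82% had their 3 highest arrays in this group and 1.07% their 3 lowest. Both receptors were chosen against these 3 mock arrays, so the shares are background and nothing is read from them. From low to high, the group means of GALR2 were 4.94 (EcN, 60 min), 5.40 (EcN, 120 min), 5.53 (mock, 120 min), 5.63 (ST, 60 min), 5.91 (ST, 120 min) and 6.55 (mock, 60 min). Neighbours in this order overlapped except at both ends, where EcN at 60 min and mock at 60 min did not reach their neighbours. EcN at 60 min still overlapped with mock at 120 min, whose array C stood at 4.94, inside the EcN range of 4.71 to 5.24. From low to high, P2RY2 had 4.36 (EcN, 60 min), 4.48 (EcN, 120 min), 4.56 (ST, 120 min), 4.63 (ST, 60 min), 4.64 (mock, 120 min) and 5.14 (mock, 60 min). Here too EcN at 60 min and mock at 60 min did not overlap with their neighbours, and the 4 groups between them did. ST array B at 120 min, at 4.39, lay inside the EcN range of 4.32 to 4.43 at 60 min.

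GALR2 and P2RY2 followed each other over the arrays, with Pearson's r = 0.85 and Spearman's rho = 0.83 over 18 arrays. Without the 3 mock arrays at 60 min r was 0.69 over 15 arrays. The points share groups and the choice of both genes for the same contrast, and the correlation is a description. P2RY2 ranked 37 among 16110 genes by its r with GALR2, and GALR2 ranked 38 by its r with P2RY2.

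**Figure D3:**
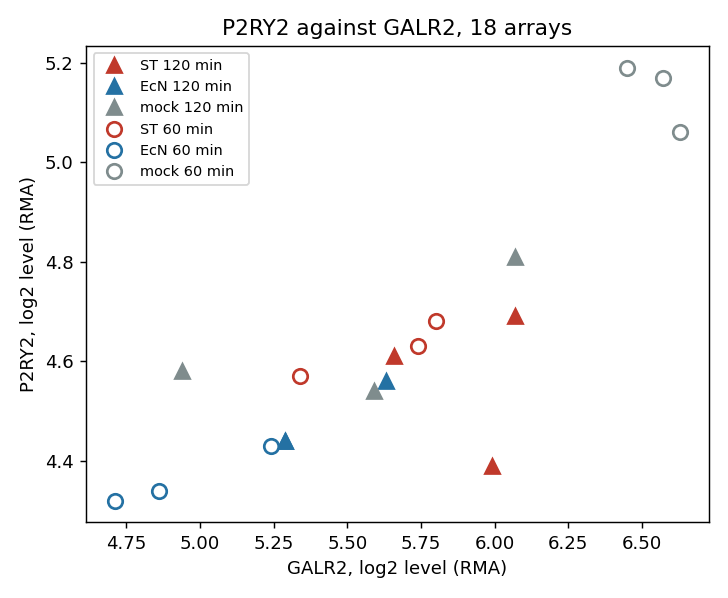
Log2 level of P2RY2 against that of GALR2 on each of the 18 arrays; colours give the treatment, filled and open marks the time. The 3 mock arrays at 60 min lie apart at the upper right. The 3 EcN arrays at 60 min lie at the lower left, with array C close to EcN arrays at 120 min. The correlation is 0.85 with the mock arrays at 60 min and 0.69 without them.

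The gene most like both receptors over the 18 arrays was NOL9, a polynucleotide kinase of ribosomal RNA processing, with r = 0.93 to GALR2 and r = 0.93 to P2RY2. NOL9 stood at 8.41, 8.40 and 8.55 with EcN and at 8.51, 8.74 and 8.65 with ST at 60 min, against 9.01, 9.14 and 9.07 in mock cells. At 120 min its mock arrays were at 8.96, 8.55 and 8.45, with array A near the 60 min mock level and arrays B and C near the flagellin arrays. After NOL9, the genes most like GALR2 were UBXN8 (r = 0.92), NCDN (0.91), SLC7A6 (0.91), an amino acid transporter, and TMEM33 (0.91). Without mock at 60 min these 5 genes kept r of 0.82 to 0.88. The genes that ran most against GALR2 were MME (r = -0.92), the membrane peptidase neprilysin, and CEP55 (r = -0.92), a protein of cell division, at -0.89 and -0.92 without mock at 60 min. After NOL9, the genes most like P2RY2 were CCAR1 (0.92), UBQLN1 (0.91), SETD1A (0.91), a histone H3 lysine methyltransferase, and GATA6 (0.91), a transcription factor. Their r without mock at 60 min was 0.82, 0.77, 0.74 and 0.64. WDTC1 (-0.92) and GALNT18 (-0.91) ran most against P2RY2.

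Among the other genes of the galanin system, GAL, which encodes the ligand galanin, was the one that passed the test. With ST at 60 min GAL stood at 8.27, 8.23 and 8.29, with EcN at 8.17, 8.14 and 7.88, and in mock cells at 7.65, 7.69 and 7.80. All 6 flagellin arrays were above all 3 mock arrays, as in 16.7% of all genes for EcN and in 14.2% for ST. GAL rose with ST by 0.55 ± 0.10 (SE; adjusted p = 0.0183 in limma), and the EcN difference of 0.35 ± 0.10 did not pass (adjusted p = 0.0596 in limma). The ST call kept its direction but not its threshold without the arrays high in NF-kB targets (0.53, adjusted p = 0.0567 in limma), and it held in 14 of 19 alternatives. At 120 min GAL stood at 8.38, 8.28 and 8.30 with ST, at 8.02, 7.90 and 7.95 with EcN, and at 7.77, 8.09 and 8.13 in mock cells. The ST difference from mock was then 0.32 ± 0.12 (adjusted p = 0.306 in limma).

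The other galanin receptors and the related peptides were not called in any comparison. GALR1 averaged 2.26 over the 18 arrays, close to the array medians, and differed from mock by -0.32 ± 0.19 with EcN at 60 min (adjusted p = 0.307 in limma). GALR3 averaged 2.62 and differed by -0.44 ± 0.25 (adjusted p = 0.294 in limma). SPX, which encodes spexin, a ligand of GALR2 and GALR3, averaged 4.04 and differed by -0.09 with EcN and -0.18 with ST at 60 min. KISS1R, the receptor for kisspeptin, averaged 3.98, and KISS1, which encodes kisspeptin, 2.79. KISS1R at 120 min stood at 4.58, 4.56 and 4.57 with EcN and at 3.62, 3.96 and 3.97 in mock cells, a difference of 0.72 ± 0.12 that did not pass (adjusted p = 0.197 in limma). GALP was dim. Of 6 measured members, 1 rose with ST at 60 min, when 6.95% of all genes were called, and 0 were called with EcN, when 9.81% of all genes were.

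P2RY1 and P2RY8 were the other P2Y receptors that passed the filter, out of 9 listed. P2RY1, a receptor for ADP that also couples to Gq, lay between 5.34 and 6.25 on the 18 arrays. It differed from mock at 60 min by 0.20 ± 0.17 with EcN (adjusted p = 0.483 in limma) and by 0.34 ± 0.17 with ST (adjusted p = 0.258 in limma). The sign was opposite to that of P2RY2, which was chosen for its differences in these comparisons. P2RY8 lay between 3.34 and 5.31 and differed by 0.30 ± 0.45 with EcN and 0.35 ± 0.45 with ST, neither of which passed. P2RY6, P2RY10, P2RY12, P2RY13 and P2RY14 were dim, with means between 1.52 and 1.90. P2RY4, the other receptor for UTP, and P2RY11 had no row with their symbol alone and are not analysed here. Of the P2X receptors, the ATP-gated channels, 5 of 7 were measured and 0 were called at either time. At 60 min 9.81% of all genes were called with EcN and 6.95% with ST. P2RX4 (mean 4.31) differed from mock by 0.18 with EcN and 0.01 with ST at 60 min, and P2RX2 (mean 3.74) by 0.20 with EcN and -0.10 with ST.

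**Figure D4:**
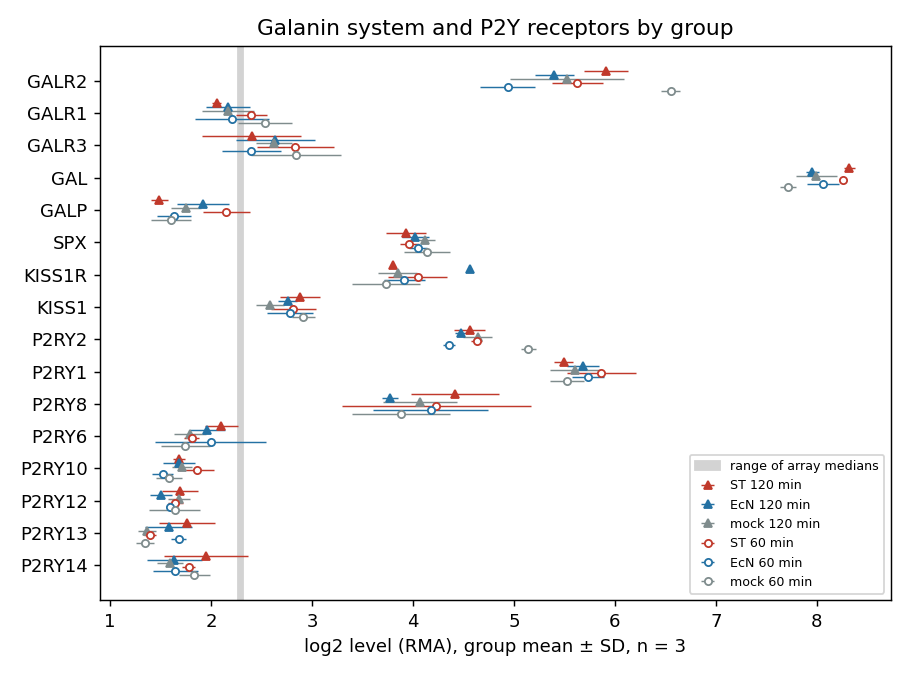
Group means ± SD (n = 3) of GALR2, P2RY2 and their relatives on the log2 scale, with filled triangles at 120 min and open circles at 60 min, and a grey band for the array medians of 2.27 to 2.32. GALR2 and P2RY2 have their mock value at 60 min to the right of all other groups; GAL has it to the left, and rows are to be read across groups and not against each other.

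Both receptors respond to ligands and signal through proteins that were described as lists, 120 genes in all without the 2 receptors, of which 92 were measured. With EcN at 60 min 8 of the 92 rose and 2 fell, or 10.9% against 9.81% of all genes (5.17% higher and 4.64% lower), with a median difference of 0.12 against 0.01 over all genes. With ST at 60 min 2 rose and 2 fell, or 4.35% against 6.95% of all genes (3.17% higher and 3.78% lower), with a median of 0.02 against 0.00. Without the arrays high in NF-kB targets 5 of these calls were left with EcN and 0 with ST, with fewer arrays fitted. Several of the lost calls had differences of similar size there, such as ENPP2 (0.44), ITPR3 (0.54) and ENTPD5 (0.53) with EcN and PANX1 (0.51) with ST. Mock array B at 60 min also decided many: without it 2 calls were left with EcN, ORAI3 and RGS16, and 0 with ST. Leaving out mock array C gave 4 calls with EcN and 1 with ST, and leaving out any 1 ST array gave 0 with ST. Leaving out any 1 EcN array gave 6 calls in the lists with EcN. Without EcN array B or C not all of these were among the calls of the main fit. At 120 min 0 of the 92 were called in any comparison in limma. At an unadjusted p under 0.05, 3 were then higher and 4 lower with EcN, and 7 higher and 7 lower with ST. Over all 16111 genes these were 1033 higher and 1090 lower with EcN, and 1118 higher and 1058 lower with ST.

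Genes that release or break down extracellular nucleotides set the supply of the ligands of P2RY2, and 15 of 20 were measured. With EcN at 60 min 3 rose and 0 fell, or 20.0% called against 9.81% of all genes. ADA, adenosine deaminase, rose by 0.76 ± 0.14 (SE; adjusted p = 0.0141 in limma), ENTPD5, a nucleotidase of the endoplasmic reticulum, by 0.57 ± 0.13 (adjusted p = 0.0287 in limma) and ENPP2, autotaxin, known mainly for making lysophosphatidic acid, by 0.42 ± 0.11 (adjusted p = 0.0369 in limma), the last a call that held in 8 of 19 alternatives. With ST 1 rose and 1 fell: PANX1, the pannexin channel through which ATP leaves cells, rose by 0.51 ± 0.12 (adjusted p = 0.0322 in limma), and ENTPD2, an ectonucleotidase that hydrolyses ATP, fell by 0.57 on the log2 scale (SE 0.12; adjusted p = 0.0281 in limma). Called with ST were 13.3%, against 6.95% of all genes. ENPP1 was not called, at -0.06 with EcN and -0.34 with ST.

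Of the Gq, phospholipase C and calcium release list, 18 of 20 were measured. With EcN at 60 min 2 rose and 1 fell, or 16.7% called against 9.81% of all genes. With ST 0 rose and 1 fell, or 5.56% against 6.95% of all genes. ORAI3, a subunit of store-operated calcium channels, stood at 6.34, 6.66 and 6.29 with EcN and at 5.69, 5.10 and 5.67 in mock cells at 60 min. It rose by 0.94 ± 0.17 (SE; adjusted p = 0.0135 in limma), and the call held in 19 of 19 alternatives. ITPR3, an inositol trisphosphate receptor that releases stored calcium, rose by 0.55 ± 0.12 (adjusted p = 0.0226 in limma), and STIM2, a calcium sensor of the endoplasmic reticulum, fell by 0.55 on the log2 scale (SE 0.13; adjusted p = 0.0301 in limma). With ST the member that fell was ORAI2, by 0.45 (SE 0.11; adjusted p = 0.0403 in limma). GNA11, a Gq-class alpha subunit, differed by -0.23 with EcN and -0.19 with ST, and PRKCA, protein kinase C alpha, by -0.05 with EcN and -0.28 with ST, none of which passed.

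Of the Gi and Go proteins, 8 of 9 were measured. With EcN at 60 min 12.5% were called, against 9.81% of all genes, and the 1 called gene fell. This was GNG5, a gamma subunit, which fell by 0.66 (SE 0.16; adjusted p = 0.0310 in limma). GNAI3 (-0.04 with EcN, -0.01 with ST) and GNAZ (0.27 with EcN, 0.26 with ST) were not called.

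Receptor kinases, arrestins and RGS proteins end the signal of such receptors, and 16 of 18 were measured. With EcN at 60 min 2 rose and 0 fell, or 12.5% called against 9.81% of all genes. Both were RGS proteins, which speed GTP hydrolysis on G alpha subunits. RGS16 rose by 0.91 ± 0.15 (SE; adjusted p = 0.0102 in limma), a call that held in 19 of 19 alternatives. At 120 min RGS16 had the opposite sign and did not pass: it stood at 7.20, 7.32 and 7.38 with EcN and at 7.38, 8.37 and 7.76 in mock cells, a difference of -0.54 ± 0.23 (adjusted p = 0.357 in limma). In 1 fit of all 18 arrays, the change of its EcN difference between the times was -1.45 ± 0.29 and did not pass (adjusted p = 0.175 in limma). RGS2, known to act on Gq, rose with EcN at 60 min by 0.62 ± 0.12 (adjusted p = 0.0155 in limma). With ST 0 were called in limma, when 6.95% of all genes were. Before adjustment 4 were higher and 0 lower (limma p under 0.05), against 1899 higher and 2064 lower of 16111 genes. The kinases GRK6 (0.12 with EcN, 0.28 with ST) and GRK3 (-0.03 with EcN, 0.02 with ST) were not called.

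Other class A receptors, the family to which GALR2 and P2RY2 belong, were measured for 22 of 30 listed genes. With EcN at 60 min 1 rose, CHRM3, the muscarinic receptor M3 (0.59 ± 0.13 SE; adjusted p = 0.0233 in limma), and 0 fell. This made 4.55% called with EcN, against 9.81% of all genes. With ST limma called 0, against 6.95% of all genes. Before adjustment 1 was higher and 2 were lower with ST at p under 0.05, against 1899 higher and 2064 lower of 16111 genes. F2R, a thrombin receptor, differed by 0.23 with EcN and 0.11 with ST, and CXCR4, a chemokine receptor, by -0.06 with EcN and 0.02 with ST, none of which passed. The median over the 22 was 0.19 with EcN and 0.00 with ST. GALR2 and P2RY2 were chosen for their differences in these comparisons, so nothing is read from setting the class against them.

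**Figure D5:**
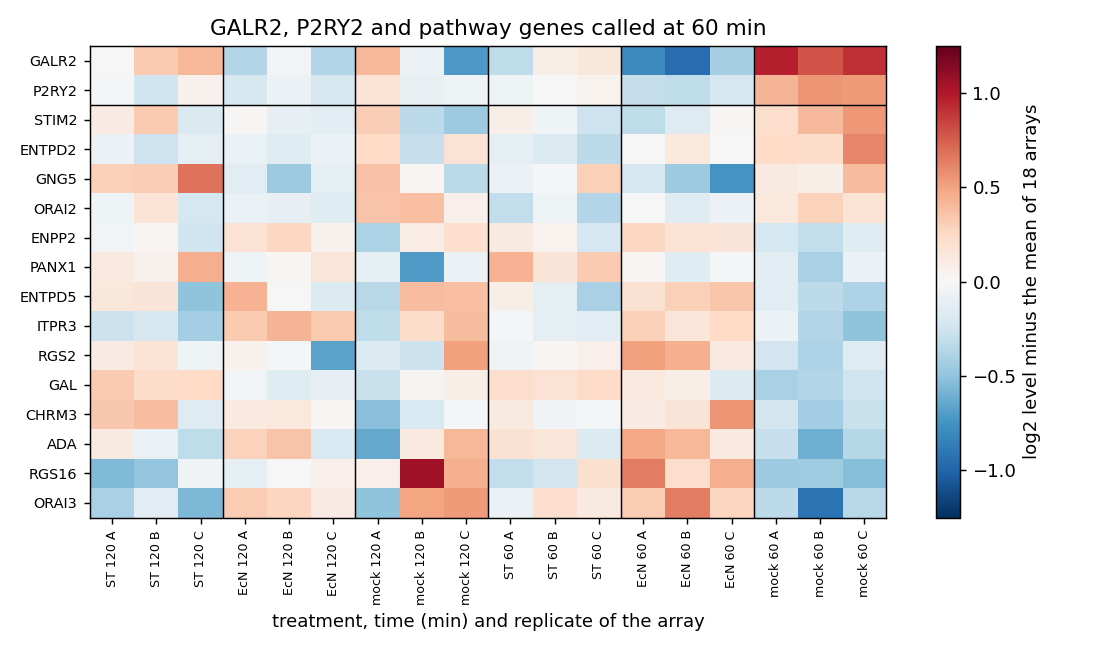
Log2 level minus the mean of the 18 arrays for GALR2, P2RY2 and the 14 listed genes called at 60 min, one column per array. GALR2 and P2RY2 are highest in the 3 mock columns at 60 min, while ORAI3 and RGS16, which rose with EcN, are low there.

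Of the protein-coding genes beside the receptors in the RefSeq table, 1 next to each receptor was called at 60 min, both with ST, when 6.95% of all genes were called. SRP68, a subunit of the signal recognition particle whose annotated span overlaps that of GALR2, rose with ST by 0.37 ± 0.09 (SE; adjusted p = 0.0404 in limma) and differed by 0.21 with EcN (adjusted p = 0.158 in limma), the opposite sign to GALR2. EVPL, ZACN, EXOC7 and FOXJ1 were not called at either time, and CDK3 had no row with its symbol alone. Beside P2RY2, FCHSD2 fell with ST by 0.37 (SE 0.09; adjusted p = 0.0380 in limma) and differed by -0.20 with EcN (adjusted p = 0.176 in limma), the same sign as P2RY2. ATG16L2, STARD10, ARHGEF17 and RELT were not called at either time, and P2RY6, which also lies there, was dim. The receptors were chosen for their own differences at 60 min, so nothing is read from setting the signs side by side. The SRP68 call held in 7 of 19 alternatives and the FCHSD2 call in 6 of 19. Without the arrays high in NF-kB targets neither neighbour passed with ST, though the differences were of similar size, at 0.39 for SRP68 (adjusted p = 0.108 in limma) and -0.33 for FCHSD2 (adjusted p = 0.133 in limma).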

How the data were processed

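The authors deposited log2 values that came from RMA, with oligo 1.30.0 as the R package named, per the submitters' processing notes; that they are on a log2 scale was read from their range of 0.17 to 13.62. No build of the array annotation is named: it is not given in the sources. The 53617 rows were named through the platform annotation: 23871 had 1 symbol, 1842 several and 27904 none, and 655 symbols were updated through RefSeq (4 kept the platform's own). Of 22357 named genes, 16111 lay above their array's median on at least 3 of 18 arrays; the others are called dim. The row with the highest mean stood for a gene. Each time was fitted alone (9 arrays, 3 group means) with limma 3.58.1 in R 4.3.3 (lmFit, eBayes, Benjamini-Hochberg over all genes, called at adjusted p under 0.05), and the fit was tested on simulated data. The change of a difference between the times came from 1 fit of all 18 arrays. The precision of a value is limited by the 3 arrays of a group. The exact permutation test was run in R 4.3.3, and SciPy 1.17.1 gave Spearman's rho.

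Named were both receptors; from each list the called members (at most 4 per comparison) and the 2 with the highest mean; every measured galanin and P2Y gene; 3 protein-coding neighbours on each side; the 5 genes of highest r and the 2 of lowest r; and NFKBIA. CXCL8, TNFAIP3 and the cell markers were named beside these. The receptors and lists were chosen with earlier results of these data known. Alternatives changed the arrays fitted, the filter, the normalization, the variance model and the replicate block, and left out arrays. Leaving out the 5 arrays high in NF-kB targets was added after seeing the data.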

Additional observations from a re-analysis of the deposited data

How the results depend on the processing

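Over 118 alternatives, 0 tests of GALR2 and P2RY2 at 120 min passed, with adjusted p in limma from 0.148 to 0.999, and 112 kept their direction. Many of these could not change direction, as they leave the difference itself as it was. They are the 18-array and 6-array fits, the filters, the trended robust variance, the replicate block and leaving out an array not compared. The pooled permutation tests are counted too and have no adjusted p. GALR2 with EcN against mock turned to 0.20 without the arrays high in NF-kB targets. It ranged from -0.42 to 0.14 with 1 array left out, 0.14 being without mock array A at 120 min. With both flagellins pooled, GALR2 differed from mock by 0.12. That is another contrast, which also holds the ST arrays, though it is counted as a change of direction for EcN. P2RY2 between ST and EcN turned to -0.0018 without the arrays high in NF-kB targets. P2RY2 with ST against mock ranged from -0.14 to 0.0076 with 1 array left out, turning to 0.0028 without mock array A and to 0.0076 without ST array B at 120 min. The cause was not tested. GALR2 with ST against mock ranged from 0.08 to 0.64 with 1 array left out. At 60 min, GALR2 ranged from -1.77 to -1.50 with EcN and from -1.01 to -0.78 with ST against mock over the alternatives run, and P2RY2 from -0.82 to -0.75 with EcN and from -0.55 to -0.48 with ST. Pairing by the letters A to C was checked. Same-letter deviations from the group means correlated at -0.05 to 0.141 at 60 min and -0.237 to 0.273 at 120 min (medians -0.002 and 0.065). Different-letter deviations correlated at -0.118 to 0.051 and -0.216 to 0.345 (medians -0.005 and 0.062). The highest same-letter value at each time was between array C of EcN and of ST, both high in NF-kB targets. Whether the letters mark a shared batch was not tested. With the replicate block, GALR2 with EcN at 120 min was -0.13 (adjusted p = 0.863 in limma), and calls at 60 min fell to 1163 with EcN and to 620 with ST. Counts of genes called moved more. With EcN at 60 min, 1580 calls became 1039 with all 18 arrays in 1 fit, 973 with the 6 compared arrays alone, 585 without the arrays high in NF-kB targets, and 422 to 1430 with 1 array left out (517 without mock array B, 422 without mock array C, and 842, 650 and 866 without EcN array A, B or C). With ST at 60 min, 1120 calls became 598 with the 6 compared arrays, 742 with no filter, 1950 with a trended robust variance, 70 without the arrays high in NF-kB targets, and 207 to 963 with 1 array left out (207 without mock array B, 236 without mock array C, and 277, 225 and 335 without ST array A, B or C). ST against EcN at 60 min had 0 calls and 0 to 1 with 1 array left out, the 1 without ST array A. At 120 min, 0 calls with EcN became 10 with all 18 arrays, 1 without the arrays high in NF-kB targets and 0 to 89 with 1 array left out, the 89 without mock array C and 1 without EcN array A. With ST they became 90, 2 and 0 to 62 in the same alternatives (62 without mock array A, 7 without EcN array A, 1 without mock array C) and 3 with the 6 compared arrays, and ST against EcN had 3 with array weights and 0 in each fit with 1 array left out. Neither receptor had another row, so choosing another row gave no value. The number of arrays per group limits all these tests.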

Other observations

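The mock arrays at 120 min differed among themselves in the genes called with EcN at 60 min, in the same order of arrays as for GALR2. The receptors were chosen by differences from mock at 60 min, as were these genes, so nothing is read from the likeness. Of these 1580 genes, 88.4% lay nearer to the mock mean than to the EcN mean of 60 min on mock array A, 45.3% on array B and 6.14% on array C. On the EcN arrays at 120 min the share was 16.2% to 19.4%, and on the ST arrays 31.5% to 48.7%. Array C of mock was thus below all 3 EcN arrays in this share. GALR2 on those mock arrays was 6.07, 5.59 and 4.94. P2RY2 was 4.81, 4.54 and 4.58, with array B the lowest. ORAI3, which rose with EcN at 60 min, stood at 5.52, 6.51 and 6.55 on mock arrays A, B and C at 120 min, ADA at 6.70, 7.46 and 7.75, and ITPR3 at 7.49, 8.04 and 8.21. Of the 10 listed genes called with EcN at 60 min, 9 were nearer to mock on array A, 3 on array B and 1 on array C. Array A is the mock array high in NF-kB targets. Whether its label or those of arrays B and C are at variance with the treatment was not tested.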
